A study of Mus musculus with 9 samples.

Results

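Adult neural stem cells (NSCs) from the subependymal zone of C57BL/6 mice were compared 6 h after the induction of differentiation with cells of the same replicate number at 0 h. The members were the 3 libraries at 6 h and the 3 at 0 h, out of 9 in the series, and every gene with enough counts was described, which were 18858 of the 48526 in the table. Both groups were wild-type cells of animals aged 2 to 4 months, expanded as neurospheres with EGF and FGF. The 6 h cells had then been held on an adhesive substrate in medium that kept FGF but held no EGF. The methods give a day in complete medium after seeding for cells fixed soon after induction, and whether the cells of these libraries were handled so is not stated. Neurospheres mix stem cells with their progeny, so that in these bulk libraries fewer cells of a type and less RNA per cell cannot be told apart.

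NSCs of this niche divide under EGF and produce neuroblasts, astrocytes and oligodendrocytes. EGF binds its receptor EGFR, which signals through the RAS and MAPK cascade to immediate early transcription factors such as EGR1 and FOS, and in turn to cyclin D, MYC and the genes of ribosome and DNA synthesis. The same growth pathways restrain FOXO factors and the lysosomal regulators of the MITF and TFEB family. Sterol and fatty acid synthesis is controlled by the SREBP factors, which are processed when membrane sterol is low. Proneural factors activate Notch ligand genes in progenitors that enter a lineage.

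At 6 h the cells had more mRNA of nearly every enzyme of sterol and fatty acid synthesis, and less of nearly every replication and ribosome assembly gene on the lists described here. The immediate early genes Egr1, Egr2 and Egr3 fell to a fraction of their 0 h level, while the core stem cell factor Sox2 did not pass the test. The Notch ligand genes Dll1, Dll3, Dll4 and Jag1 and the proteoglycan gene Cspg4 were higher, while neuronal genes moved in both directions.

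Of the 18858 genes tested with edgeR's quasi-likelihood test, with the replicate number as a block, 3282 (17.4%) were higher and 3299 (17.5%) lower at 6 h at a Benjamini-Hochberg adjusted p under 0.05. Most of these changes were small. The median size was 0.391 on the log2 scale for the higher genes and 0.315 for the lower ones. A difference of at least 1 on the log2 scale was found for 348 higher and 256 lower genes. Of the differentially expressed genes (DEGs), 3259 of the higher and 3281 of the lower ones moved the same way in all 3 pairs, against 63.2% of all tested genes. The calls were made from these same pairs, so the agreement is no separate support for them, and the 63.2% includes the called genes. The 3 values at 6 h lay wholly outside the 3 at 0 h for 25.0% of tested genes.

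**Figure D1:**
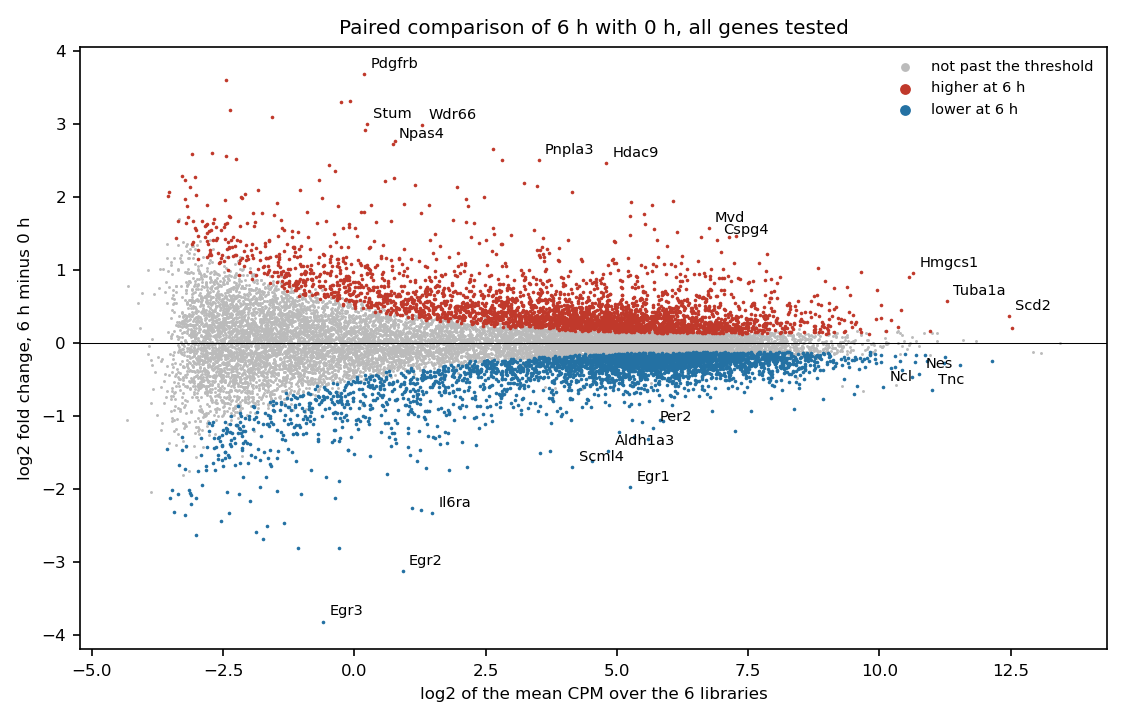
Each point is a gene, with its mean level over the 6 libraries on the x axis (log2 CPM) and its log2 fold change at 6 h against 0 h on the y axis. The 3282 higher genes are red, the 3299 lower genes blue and the others grey, and the called genes fill a band on both sides of 0 at all levels above the lowest.

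The calls rested on the pairing by replicate number. Without it, 276 genes were higher and 180 lower, and all of these 456 were also called in the paired fit. The common biological coefficient of variation was 0.0627 with the block and 0.277 without it. Libraries that shared a number deviated together from their group means, with correlations between 0.733 and 0.800 over 9 pairs of libraries, whereas libraries of different numbers had correlations from -0.462 to -0.314 over 18 pairs. Since deviations were taken from group means, the negative values follow from the positive ones and are no separate evidence for the pairing. What same-numbered libraries share is not stated in the labels, and nothing there says that the replicates were separate cultures or animals, so the p-values measure the spread between these libraries only.

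Total counts were 70388163 to 73274735 at 0 h and 73170866 to 105592597 at 6 h, so the 6 h libraries were the deeper ones in replicates 2 and 3. Markers of other cell types were scarce. Of 12 microglia markers 11 stayed under 1 count per 1000000 counts (CPM) in all 6 libraries, and 5, including the complement genes C1qa, C1qb and C1qc, had no count. Of 10 endothelial markers 7 stayed under 1 CPM, and their summed level was 5.54 to 20.9 CPM at 0 h and 3.89 to 11.8 CPM at 6 h. The pericyte and fibroblast markers summed to 57.7 to 103 CPM at 0 h and 36.7 to 51.0 CPM at 6 h. The ependymal markers summed to 50.7 to 92.6 CPM at 0 h and 42.6 to 64.4 CPM at 6 h, and mature neuron markers to 50.3 to 99.7 CPM and 75.8 to 141 CPM. The last 3 lists held signal in every library, but few genes made up much of it. Of their markers, 6 of 11 pericyte and fibroblast, 5 of 10 ependymal and 4 of 10 mature neuron ones stayed under 1 CPM. Much of the sums came from Acta2, from Foxj1 (36.3 to 85.8 CPM), and from Gad1 (17.2 to 51.7 CPM) and Syt1 (10.5 to 114 CPM). The part of such cells in the results was not tested.

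Cspg4 encodes the NG2 proteoglycan of oligodendrocyte progenitors and pericytes and lies at chr9:56865033-56899870 (all coordinates are on GRCm38). It was at 70.0, 54.3 and 73.5 CPM at 0 h in replicates 1, 2 and 3, and at 183, 151 and 188 CPM at 6 h. The means were 65.9 ± 10.2 and 174 ± 19.9 CPM (SD, n = 3 each), and the log2 fold change was 1.41 ± 0.06 (SE; adjusted p = 1.06e-08). Every 6 h library stood above every 0 h library.

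Pnpla3, at chr15:84167837-84187236, encodes a lipid droplet protein whose transcription follows SREBP activity. It rose from 2.96, 3.88 and 3.47 CPM to 20.2, 20.2 and 17.7 CPM (log2 fold change 2.501 ± 0.11, adjusted p = 1.23e-08). This 5.66-fold rise was the largest on the sterol and fatty acid list. Msi1, at chr5:115429599-115455698, encodes the RNA-binding protein Musashi of stem and progenitor cells. Its level was 47.8, 45.5 and 42.6 CPM at 0 h and 70.8, 78.3 and 64.5 CPM at 6 h (0.65 ± 0.06, adjusted p = 2.96e-06). The groups of both genes did not overlap.

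Egr2, at chr10:67535475-67542188, encodes a zinc finger immediate early factor. It fell from 2.54, 3.60 and 4.08 CPM to 0.231, 0.517 and 0.401 CPM (-3.13 ± 0.19, adjusted p = 1.78e-07). These levels rested on 184, 266 and 285 counts at 0 h and 17, 47 and 43 counts at 6 h. Il6ra, at chr3:89864059-89913196, encodes the chain of the interleukin-6 receptor that binds the cytokine. It fell from 5.81, 3.96 and 4.25 CPM to 1.00, 0.748 and 0.989 CPM (-2.33 ± 0.13, adjusted p = 6.03e-08). All 5 of these genes also passed the test without the replicate block.

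**Figure D2:**
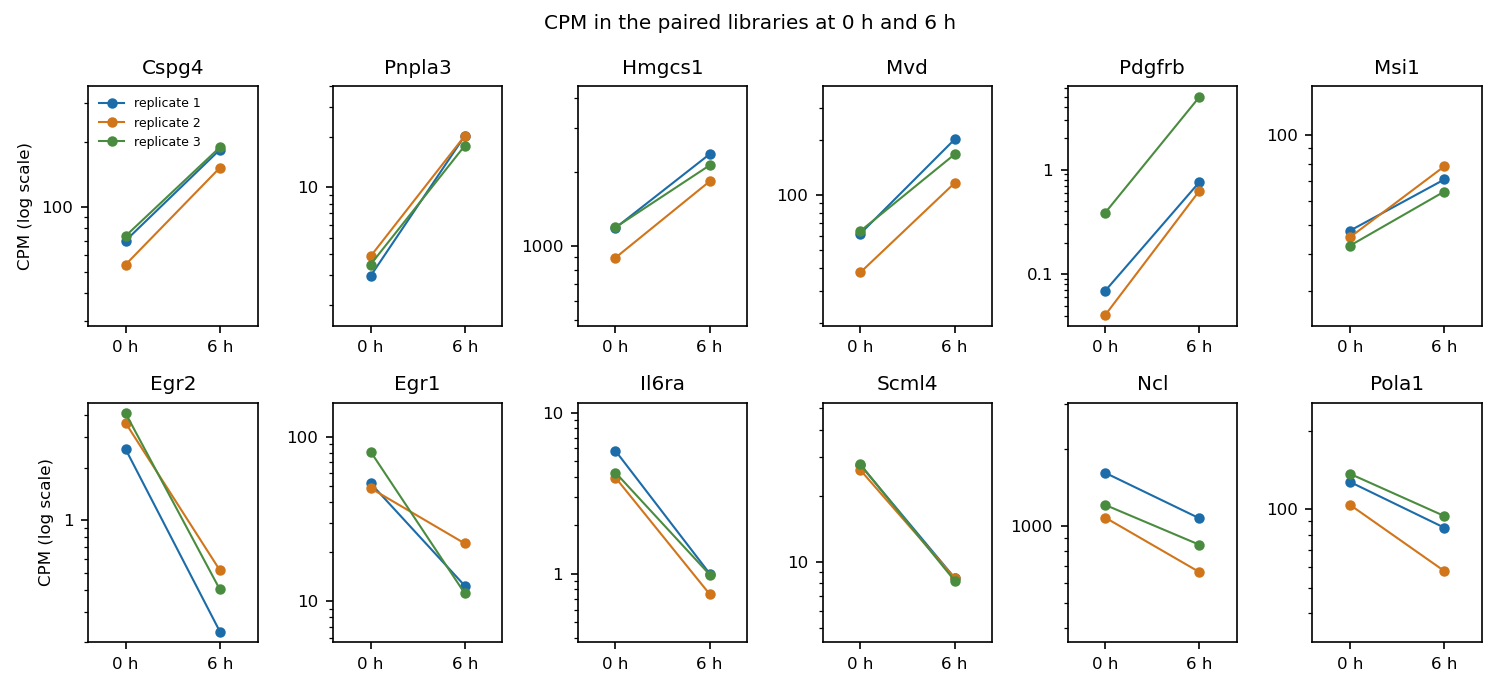
CPM of 12 genes on log y axes whose scales differ between panels, with a line joining the 0 h and the 6 h library of each replicate. All 3 lines rise for Cspg4, Pnpla3, Hmgcs1, Mvd, Pdgfrb and Msi1, and all 3 fall for Egr2, Egr1, Il6ra, Scml4, Ncl and Pola1.

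Of 36 genes of sterol and fatty acid synthesis, 34 (94.4%) were higher at 6 h and 0 lower. Their median log2 fold change was 0.82, against 0 over all genes tested. The summed level of the list rose from 13610 to 14540 CPM at 0 h to 21390 to 22280 CPM at 6 h, and the median within the pairs was 0.89, 0.81 and 0.66. Without the block, 14 of the 36 passed the test and 0 were lower. Leaving out any library or replicate number left 32 to 35 genes higher. Insig2, which holds the SREBP escort protein in the endoplasmic reticulum, and Tmem97 were the members that did not pass.

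The rise covered the pathway from its first steps to its end. Hmgcs1, the cytosolic HMG-CoA synthase, went from 1185, 897 and 1191 CPM to 2359, 1830 and 2126 CPM (0.95 ± 0.05, adjusted p = 8.16e-08). The groups did not overlap. Mvd, which makes isopentenyl diphosphate, went from 61.5, 37.8 and 63.6 CPM to 201, 116 and 166 CPM (1.58 ± 0.09, adjusted p = 8.45e-08), the largest change among the mevalonate enzymes. Lss, which closes the first sterol ring, rose from 142, 115 and 165 CPM to 335, 299 and 342 CPM, and Insig1, the sterol-regulated brake on SREBP processing, from 306, 273 and 327 CPM to 653, 574 and 614 CPM.

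The fatty acid branch rose as well. Acss2, which makes acetyl-CoA from acetate, went from 69.4, 57.1 and 103 CPM to 197, 169 and 250 CPM (1.45 ± 0.07, adjusted p = 2.06e-08). Acly, which makes it from citrate, rose from 579, 442 and 607 CPM to 1179, 883 and 1143 CPM, and Fasn, the fatty acid synthase, from 1006, 924 and 1240 CPM to 1912, 1841 and 2167 CPM. Both had separate groups. Scd2, the main brain desaturase, had the largest gain in CPM of the list, with a mean of 1446 CPM, from 4818, 5411 and 4626 CPM to 6226, 7045 and 5923 CPM. Srebf1, which encodes SREBP-1 itself, changed least among those named, from 304, 506 and 380 CPM to 335, 675 and 412 CPM (0.23, adjusted p = 0.0097), and its call was lost without either replicate 2 library (highest adjusted p, 0.181). Among 8 sterol efflux genes, Apoe, Lpcat3 and Nr1h3 were higher, the last of which kept its call in 2 of 12 fits with fewer libraries (highest adjusted p, 0.183), and Abca1, the cholesterol exporter, was lower (-0.38, adjusted p = 0.0045).

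**Figure D3:**
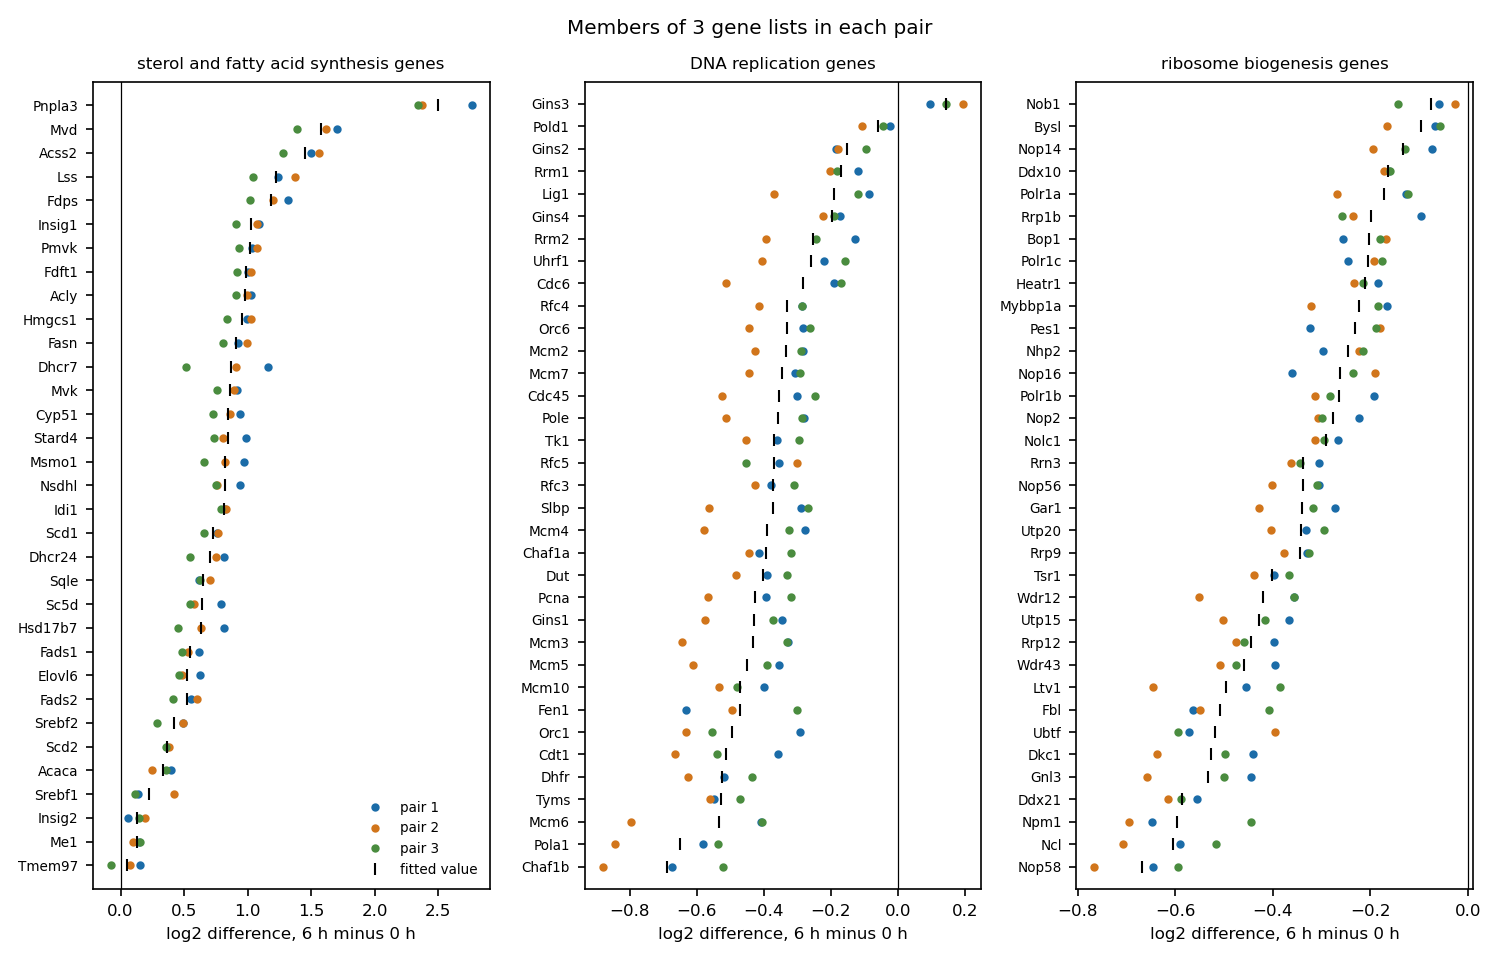
Log2 fold changes of the members of 3 lists (x axis, 6 h minus 0 h), with dots for pairs 1 to 3 and a tick for the fitted value (3 sterol genes are not drawn). Sterol and fatty acid synthesis genes lie to the right of 0, with 34 of 36 higher, while replication genes and ribosome biogenesis genes lie to the left, with 32 of 35 lower in each.

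A stretch of the Hmgcs1 promoter is printed because it holds the only SREBP motif (TCACNCCAC, in capitals here, both strands searched) among 25 sterol and fatty acid genes with a RefSeq promoter window. Windows ran from 250 bases before to 50 after a start, and 1.43% of all 11963 tested genes with a window held that motif. The stretch lies at chr13:119690194-119690242 on the + strand, upstream of the start and outside annotated exons.
Hmgcs1: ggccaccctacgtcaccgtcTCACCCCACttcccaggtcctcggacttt

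Of 33 immediate early genes, 19 (57.6%) were lower and 8 (24.2%) higher at 6 h, with a median log2 fold change of -0.40. The groups did not overlap for 21 of them, beside 25.0% of all tested genes. The largest falls were those of Egr1, Egr2 and Egr3, which encode zinc finger factors induced by MAPK signalling, while Egr4 did not pass the test. Egr1 went from 52.2, 48.7 and 81.4 CPM to 12.4, 22.5 and 11.2 CPM (-1.98 ± 0.23, adjusted p = 3.25e-05). Egr3 went from 0.995, 1.70 and 1.00 CPM to 0.0814, 0.132 and 0.0467 CPM (-3.82 ± 0.42, adjusted p = 2.3e-05). Arc, a synaptic immediate early gene, went from 6.26, 9.50 and 4.37 CPM to 1.85, 3.38 and 1.15 CPM (-1.70). The highest 6 h value lay under the lowest 0 h value in each of these 3 genes. The fall of the AP-1 and MYC genes was smaller. Fos went from 12.97, 15.3 and 15.6 CPM to 9.50, 10.7 and 7.95 CPM (-0.65, adjusted p = 0.000152), and Myc, the growth regulator, from 118, 102 and 107 CPM to 82.2, 80.2 and 64.5 CPM (-0.53, adjusted p = 0.000236).

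The list also held genes that moved the other way. Npas4, an activity-dependent factor of neurons, rose from 0.235, 0.541 and 0.487 CPM to 1.85, 5.03 and 1.82 CPM (2.73 ± 0.30). Gadd45b, a stress and differentiation gene, rose from 1.98, 1.53 and 1.68 CPM to 6.62, 6.22 and 4.05 CPM (1.69). Nfil3, a repressor that is also a clock output factor, rose from 4.62, 4.58 and 4.75 CPM to 10.1, 11.8 and 8.05 CPM (1.10). Groups were separate for these 3 genes, and Nr4a1, Nr4a2, Btg2, Zfp36 and Nfkbiz were the other members that rose.

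The CArG box, the binding motif of SRF, is shown for Egr2 and for Srf itself, the members that were lower and held it, since SRF relays MAPK signals to immediate early genes. It was found in 3 of 25 members with a window, the third being Zfp36, which was higher, and in 1.60% of all tested genes with a window. The capitals mark the box. The Egr2 stretches are at chr10:67537474-67537523 and chr10:67537777-67537826 on the + strand, inside the span of the gene, upstream of RefSeq starts and outside exons. The Srf stretch is at chr17:46556195-46556264 on the - strand.
Egr2 a: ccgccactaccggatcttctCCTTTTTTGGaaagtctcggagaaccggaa
Egr2 b: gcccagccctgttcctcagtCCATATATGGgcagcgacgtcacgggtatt
Srf: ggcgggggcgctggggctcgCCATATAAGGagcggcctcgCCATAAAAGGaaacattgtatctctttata

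The EGR motif GCGNGGGCG was found in 12 of the 25 windows (48.0%), against 12.1% of all tested genes. It was in 13.1% of the higher and 13.5% of the lower genes with a window, and in 38.9% of the WNT pathway genes with a window. A match describes letters in the window and shows no binding.

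Feedback genes of the MAPK cascade were mixed: of 22, 8 were lower and 3 higher. Dusp6, a phosphatase that switches off ERK, fell from 510, 365 and 387 CPM to 323, 306 and 225 CPM (-0.56). Spred1, an inhibitor of RAS signalling, fell from 339, 354 and 379 CPM to 262, 255 and 282 CPM (-0.42). Dusp4 and the EGR corepressor Nab2 also fell, by 0.61 and 0.66 on the log2 scale. The Sprouty genes did not pass the test (Spry2, -0.08, adjusted p = 0.37). Of the ETS factor genes, Etv1 did not pass (-0.05, adjusted p = 0.684) and both others were higher. Etv4 rose from 144, 154 and 169 CPM to 182, 212 and 194 CPM (0.34) and Etv5 from 621, 541 and 473 CPM to 765, 633 and 580 CPM (0.27).

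Among 12 tested ErbB receptor and ligand genes, 3 were higher and 2 lower (1 to 4 and 1 to 2 with libraries left out), and the shares of 25.0% and 16.7% lay near those of all tested genes, 17.4% and 17.5%. Egfr was at 608, 740 and 629 CPM at 0 h and 699, 820 and 763 CPM at 6 h (0.21, adjusted p = 0.0392), a call that was lost in 7 of 12 fits with fewer libraries (highest adjusted p, 0.242). Erbb2 rose from 30.8, 32.1 and 44.4 CPM to 40.1, 40.4 and 56.5 CPM (0.35). The EGFR ligand genes differed in sign. Areg fell from 4.26, 1.26 and 1.70 CPM to 1.36, 0.561 and 0.980 CPM (-1.23) and Hbegf by 0.48 on the log2 scale (lost in 1 of 12 fits), while Tgfa rose from 9.26, 6.92 and 12.7 CPM to 12.1, 8.32 and 15.5 CPM (0.31, lost without replicate 1 at an adjusted p of 0.0548). Of 17 tested FGF genes 3 were higher (17.6%, near the 17.4% of all tested genes). Among these was the ligand gene Fgf1, from 46.3, 8.73 and 11.4 CPM to 87.6, 17.8 and 23.6 CPM (1.00). Fgfr3 was lower (-0.21), a call lost in 4 of 12 fits with fewer libraries.

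Of 19 tested FOXO factors and growth factor withdrawal targets, 8 (42.1%) were higher and 1 (5.26%) lower (median 0.11). The lower one, Fbxo32, kept its call in 12 of 12 fits with fewer libraries (log2 fold change -0.731 to -0.434). Of the higher ones, Foxo1 kept its call in 5, Foxo6 in 6, Sesn3 in 7 and Pik3ip1 in 9 of these 12 fits. Sesn1, a stress-induced inhibitor of mTORC1, rose from 24.3, 24.9 and 26.0 CPM to 41.0, 41.8 and 45.6 CPM (0.77), with narrow and separate groups. Bcl6, a repressor with roles in neurogenesis, rose from 11.6, 9.70 and 6.64 CPM to 20.4, 23.6 and 16.8 CPM (1.14). Foxo4 rose from 29.2, 27.7 and 31.1 CPM to 45.0, 43.2 and 41.0 CPM (0.56). Foxo3 (0.04, adjusted p = 0.654) and the CDK inhibitor gene Cdkn1b (-0.07, adjusted p = 0.28) did not pass the test. The count of higher genes varied between 4 and 9 when libraries were left out, and 2 passed without the block.

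Genes of G1 control, replication and mitosis were described apart. Of 25 genes of G1 control, 12 (48.0%) were lower and 4 (16.0%) higher, with a median of -0.15. With libraries left out, 10 to 13 were lower and 1 to 5 higher. Ccnd2, a D-type cyclin, fell from 1800, 2181 and 1493 CPM to 1188, 1670 and 1126 CPM (-0.46), and Ccnd1 from 1832, 1805 and 1710 CPM to 1454, 1624 and 1370 CPM (-0.27). Ccne2, a cyclin of S phase entry, fell from 43.5, 35.6 and 48.6 CPM to 28.9, 18.1 and 32.4 CPM (-0.71). Among the inhibitors, Cdkn1c was higher, from 0.470, 0.473 and 0.702 CPM to 0.774, 1.08 and 0.999 CPM (0.79), a call lost in 4 of 12 fits with fewer libraries (highest adjusted p, 0.142), while Cdkn1a was at 568, 381 and 558 CPM and 610, 411 and 603 CPM (0.11, adjusted p = 0.0823).

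DNA replication genes were lower. Of 35, 32 (91.4%) were lower and 0 higher, with a median of -0.37, and 34 were lower in all 3 pairs. Their summed level was 3612 to 5205 CPM at 0 h and 2604 to 4265 CPM at 6 h, and pair medians were -0.31, -0.50 and -0.30. The spread between replicates was large, and 0 passed the test without the block. The groups were separate for 9 of the 35, near the share of 25.0% of all tested genes. Between 24 and 33 were lower when libraries were left out.

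Pola1, the catalytic subunit of DNA polymerase alpha, fell from 128, 104 and 137 CPM to 85.1, 58.0 and 94.4 CPM (-0.65, adjusted p = 1.07e-05), with no overlap. Chaf1b, a histone chaperone of the fork, fell from 60.4, 39.3 and 60.3 CPM to 37.9, 21.3 and 42.0 CPM (-0.69). Tyms, which makes thymidylate, fell from 85.5, 64.2 and 86.5 CPM to 58.5, 43.5 and 62.5 CPM (-0.53). In the helicase gene Mcm6 the pairs fell from 468, 232 and 390 CPM to 352, 134 and 294 CPM (-0.53), and replicate 2 was lowest at both times. Pcna, the sliding clamp, fell from 391.7, 311 and 395 CPM to 298, 210 and 316 CPM (-0.43). Gins2, Gins3 and Pold1 did not pass.

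The motif TTTNGCGC of E2F, the factor family released by cyclin D and CDK activity, was found in 10 of 29 replication genes with a window (34.5%), in 2.67% of all tested genes with a window, in 4.58% of those that were lower and in 1.80% of those that were higher. The 4 stretches printed are those upstream of a start that touch no annotated exon, from genes that were lower. Capitals mark the motif on either strand. They lie at chr8:75109336-75109387 (+) for Mcm5, chr1:128359725-128359835 (-) for Mcm6, chrX:93632266-93632313 (-) for Pola1 and chr17:56304108-56304155 (+) for Uhrf1, which encodes a maintenance factor of DNA methylation. Where matches overlap, as in Mcm5 and in the first run of Mcm6, the capitals span both.
Mcm5: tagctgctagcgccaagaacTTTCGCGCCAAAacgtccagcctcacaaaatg
Mcm6: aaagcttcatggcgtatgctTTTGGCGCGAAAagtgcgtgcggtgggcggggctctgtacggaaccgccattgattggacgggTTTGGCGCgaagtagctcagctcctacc
Pola1: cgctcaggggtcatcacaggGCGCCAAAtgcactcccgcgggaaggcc
Uhrf1: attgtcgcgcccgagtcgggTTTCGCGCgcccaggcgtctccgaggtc

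Of 28 mitosis genes, 5 were lower (17.9%, near the 17.5% of all tested genes) and 1 higher (3.57%, under the background of 17.4%). The median was -0.02 and no gene had separate groups. With libraries left out, 1 to 8 were lower and 0 to 10 higher, so that the balance of the calls could turn. Top2a fell from 968, 776 and 943 CPM to 884, 633 and 789 CPM (-0.23, lost without replicate 2 at an adjusted p of 0.0914), and Cdk1 was at 243, 206 and 257 CPM and 233, 191 and 218 CPM (-0.13, adjusted p = 0.17). The direction of the median was not stable. It was 0.035 with GC and length trends removed, and 0.025 to 0.060 when the 0 h or 6 h library of replicate 3, or both, were left out.

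Ribosome biogenesis genes were lower throughout. Of 35 tested, 32 (91.4%) were lower and 0 higher (median -0.34), and all 35 were lower in each of the 3 pairs. The groups were separate for 21, beside 25.0% of all tested genes. The summed level of the list went from 5048 to 6071 CPM at 0 h to 3554 to 4445 CPM at 6 h. Without the block 3 passed, and 23 to 33 passed when libraries were left out. Ncl, which encodes nucleolin, fell from 1611, 1077 and 1207 CPM to 1070, 660 and 844 CPM (-0.61), and Npm1, nucleophosmin, from 945, 843 and 952 CPM to 604, 521 and 700 CPM (-0.60). Ddx21, a nucleolar helicase, fell from 300, 282 and 330 CPM to 204, 184 and 219 CPM (-0.59) and was among those that passed without the block (adjusted p = 0.027). Nop58, a core protein of box C/D snoRNPs, fell from 259, 168 and 201 CPM to 165, 98.6 and 133 CPM (-0.67).

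The E-box CACGTG, bound by MYC and by the MITF and TFEB family, was found in 8 of 31 ribosome biogenesis genes with a window (25.8%), in 10 of 27 lysosome and autophagy genes (37.0%) and in 11.1% of all tested genes with a window. A stretch is shown from each list, of which Nop2, an rRNA methyltransferase gene, was lower and Atg7, an autophagy enzyme gene, higher, with the E-box in capitals. They lie at chr6:125131803-125131848 and chr6:114670944-114670989, both on the + strand. Of the lysosome and autophagy genes with an E-box, Ctsa, Ctsd and Atg7 were higher. The others, among them Lamp1 with 4 matches, did not pass the test. The E-box was also found in 41.7% of MYC network genes and 40.0% of p53 targets with a window. Over all tested genes with a window, it was in 14.4% of the lower and 9.64% of the higher ones. In addition, 7 of the 31 ribosome biogenesis windows (22.6%) held the ETS motif CCGGAAGT, against 8.18% of all. The ETS share was also 19.0% in cytosolic ribosomal protein genes and 17.2% in replication genes with a window.
Nop2: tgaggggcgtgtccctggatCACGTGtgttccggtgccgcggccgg
Atg7: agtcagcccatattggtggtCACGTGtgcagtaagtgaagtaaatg

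The MYC network moved in both directions, with 46.2% higher and 23.1% lower. Among 13 genes of the MYC network, Myc, Mnt and Mycn (-0.32, lost in 7 of 12 fits with fewer libraries) were lower, and Mycl (from 33.1, 40.6 and 29.7 CPM to 45.0, 70.1 and 45.7 CPM, 0.62), Mxd1 (0.90), Mxd4, Mxi1, Mlx and Mlxip were higher. Of 79 cytosolic ribosomal protein genes 14 were lower (17.7%, near the background of 17.5%) and 0 higher, with a median of -0.12. This count was 39 with GC and length trends removed, 4 with libraries scaled to their totals, and 0 to 47 when libraries were left out. Of 74 nuclear genes of oxidative phosphorylation 6 were higher (8.11%, under the background of 17.4%) and 0 lower (median 0.09), and the count of higher genes was 13 with library totals and 0 to 28 when libraries were left out. Of 13 mitochondrially encoded genes 5 (38.5%), all of complex I, were lower, and 3 with library totals or with GC and length trends removed. Of these 5, mt-Nd5 kept its call in 4 and mt-Nd3 in 6 of 12 fits with fewer libraries (highest adjusted p, 0.272 and 0.319). The complex I gene mt-Nd1 went from 5672, 3992 and 5051 CPM to 4805, 3309 and 4313 CPM (-0.25).

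Lysosome and autophagy genes rose in part: 15 of 35 (42.9%) were higher and 0 lower (median 0.12), with 8 to 21 higher when libraries were left out and 1 without the block. Mitf, a regulator of lysosomal genes, rose from 4.17, 3.80 and 3.92 CPM to 10.03, 11.0 and 9.51 CPM (1.36 ± 0.09, adjusted p = 2.43e-07). Its relative Tfeb rose from 4.98, 4.92 and 8.28 CPM to 8.41, 8.11 and 10.3 CPM (0.59). The enzymes and transporters changed less. Npc1, which exports cholesterol from lysosomes, rose from 114, 152 and 123 CPM to 143, 195 and 153 CPM (0.33) and Ctsd, a protease, from 140, 183 and 141 CPM to 150, 224 and 159 CPM (0.19, lost in 4 of 12 fits with fewer libraries), while the membrane protein gene Lamp1 had 0.10 (adjusted p = 0.149).

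**Figure D4:**
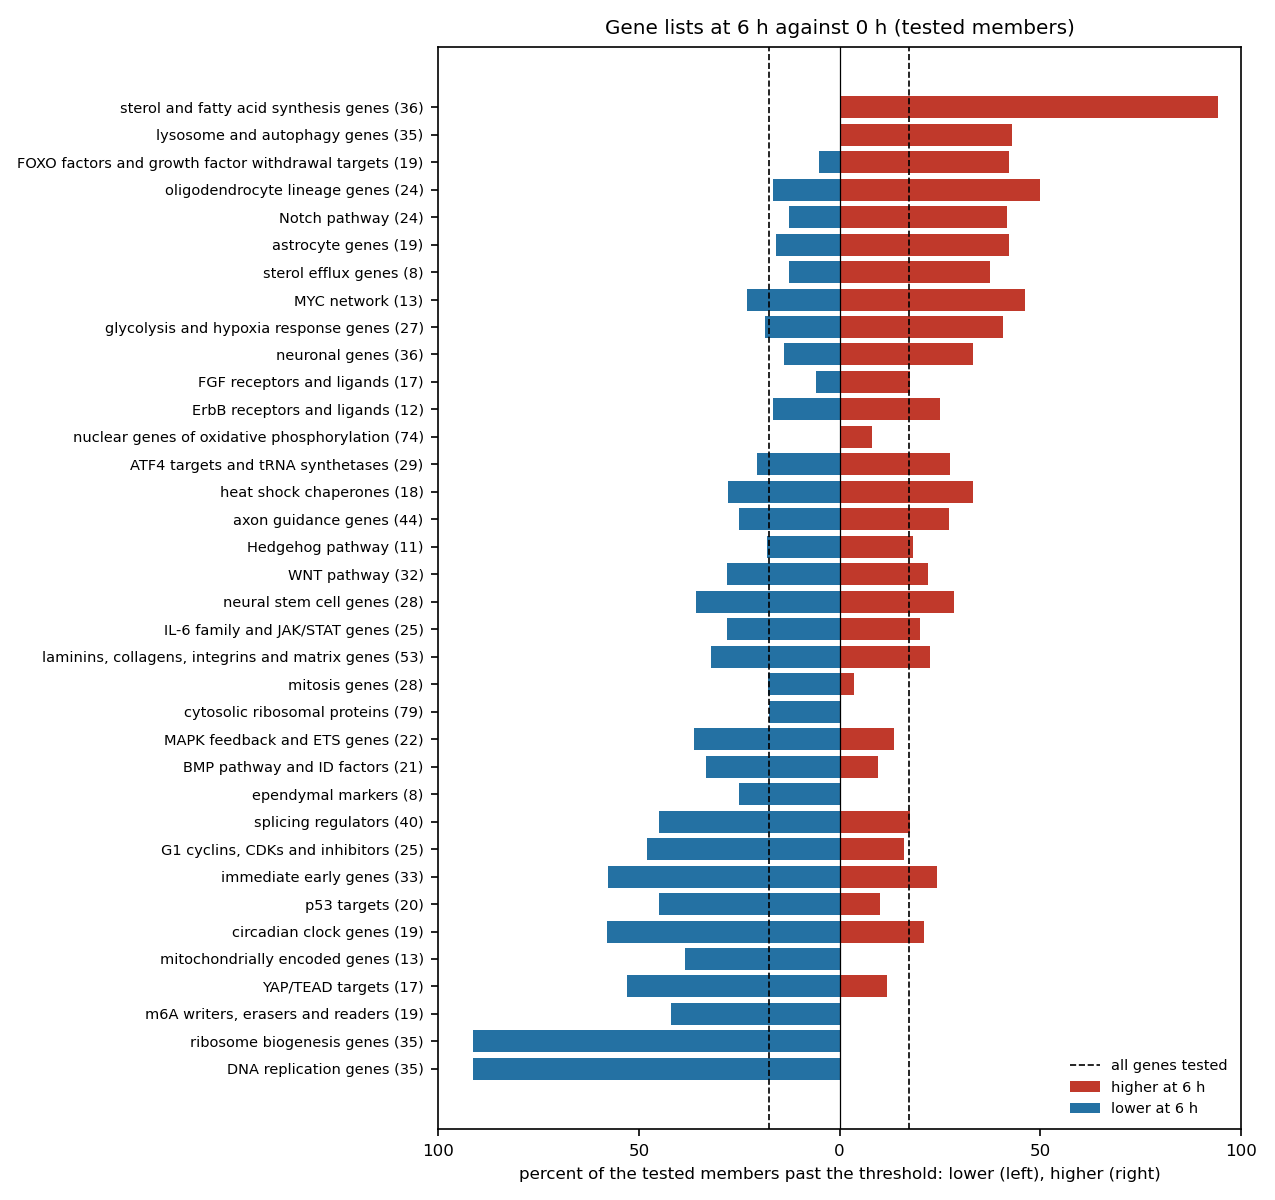
Percentage of the tested members of each list that were higher (bars to the right) or lower (bars to the left) at 6 h, for lists with at least 8 tested members. Dashed lines mark the shares over all tested genes, 17.4% and 17.5%, and the longest bars are sterol and fatty acid synthesis at 94.4% higher and DNA replication and ribosome biogenesis at 91.4% lower.

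Among 28 NSC genes 8 were higher and 10 lower, with a median of 0.07. Nes, the intermediate filament nestin, fell from 1550, 2318 and 2090 CPM to 1106, 1784 and 1545 CPM (-0.43), and Vim from 2391, 2535 and 2921 CPM to 1840, 2246 and 2413 CPM (-0.28, lost without replicate 1 at an adjusted p of 0.0504). Nfib, a nuclear factor of gliogenesis, fell from 395, 409 and 360 CPM to 289, 286 and 273 CPM (-0.45) with separate groups. The stem cell factor Sox2 was at 106, 108 and 103 CPM and 117, 107 and 105 CPM (0.06, adjusted p = 0.488). Msi1 was thus higher while the filament genes of the same list were lower.

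Of 24 tested Notch pathway genes 10 (41.7%) were higher and 3 (12.5%) lower (median 0.29). The 3 Delta-like genes rose. Dll3 went from a mean of 11.6 ± 0.651 CPM (SD, n = 3) to 22.4, 24.3 and 21.9 CPM (0.98), Dll1 from 61.1, 92.9 and 68.0 CPM to 79.5, 123 and 111 CPM (0.50) and Dll4 from 0.124, 0.365 and 0.158 CPM to 0.706, 1.86 and 0.569 CPM (2.24). Numb, an inhibitor of Notch inherited by a single daughter cell, rose from 25.6, 40.2 and 37.9 CPM to 43.4, 58.3 and 54.5 CPM (0.61). The effectors were split. Hes1 fell from 23.5, 31.9 and 27.1 CPM to 15.4, 26.0 and 22.2 CPM (-0.39), and Hes6, an antagonist of Hes1, rose from 136, 78.9 and 86.7 CPM to 200, 154 and 134 CPM (0.72). Hes5 was at 1.78, 6.27 and 4.30 CPM and 2.35, 8.29 and 9.25 CPM (0.68), and its call was lost without the 0 h library of replicate 3 or without replicate 3 (adjusted p up to 0.0778). The receptor gene Notch1 (0.33, adjusted p = 0.0236) lost its call in 4 fits with fewer libraries (highest adjusted p, 0.168).

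Neuronal genes did not move as a list. Of 36 tested, 12 (33.3%) were higher and 5 (13.9%) lower (7 to 13 and 3 to 7 with libraries left out), with a median of 0.001. Those that rose included cytoskeletal and synaptic genes of young neurons. Crmp1, a collapsin response mediator, rose from 63.1, 92.1 and 70.8 CPM to 168, 188 and 174 CPM (1.25), Syt1, the synaptic calcium sensor, from 10.5, 24.4 and 33.5 CPM to 39.8, 57.6 and 114 CPM (1.64), and Tubb3, neuronal beta-tubulin, from 4.34, 4.91 and 2.03 CPM to 8.97, 10.1 and 4.43 CPM (1.06). The RNA-binding protein gene Elavl3 rose from 10.3, 9.47 and 7.85 CPM to 18.5, 18.2 and 13.7 CPM (0.87). The neuroblast marker Dcx did not pass (-0.35, adjusted p = 0.291), and the neurofilament gene Nefl was lower, from 0.995, 5.49 and 0.186 CPM to 0.462, 2.35 and 0.0280 CPM (-1.29). Scrt1, a neuronal repressor that is a subject of the study, was at 0.263, 0.676 and 0.487 CPM at 0 h and 0.611, 0.913 and 0.635 CPM at 6 h. It was higher in each pair, the groups overlapped, and its difference did not pass the test (0.62 ± 0.27, adjusted p = 0.0922).

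Glial genes rose in part. Of 24 tested oligodendrocyte lineage genes 12 were higher and 4 lower (median 0.30). The lower ones were Ugt8a, Tcf7l2, Zfp488 and the myelin gene Mobp, which kept its call in 9 of 12 fits with fewer libraries. Olig1, Mog and Myrf did not pass. Beside Cspg4, the lineage factor Olig2 rose from 701, 545 and 653 CPM to 849, 708 and 761 CPM (0.29) and the progenitor receptor Pdgfra from 7.84, 8.87 and 16.5 CPM to 9.66, 11.3 and 19.99 CPM (0.31). Opalin, a gene of mature oligodendrocytes, was at 0.194, 0.581 and 0.301 CPM and 0.353, 1.00 and 0.756 CPM (0.96, lost in 3 of 12 fits), and Cnp, a myelin enzyme gene, rose from a mean of 61.4 CPM to 83.4 CPM (0.44). Of 19 tested astrocyte genes 8 (42.1%) were higher and 3 (15.8%) lower (median 0.14). Ndrg2, a gene of mature astrocytes, rose from 15.7, 38.0 and 10.5 CPM to 51.1, 120 and 40.6 CPM (1.76 ± 0.06, adjusted p = 4.26e-09). This was the smallest adjusted p of all genes named, although its level differed several-fold between replicates. Glul, glutamine synthetase, rose from 300, 208 and 270 CPM to 407, 295 and 400 CPM (0.50), and Apoe from 44.3, 44.2 and 54.6 CPM to 67.7, 83.2 and 76.1 CPM (0.67). The filament gene Gfap was lower (-0.63, adjusted p = 0.0282), a call lost in 5 fits that left out libraries.

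**Figure D5:**
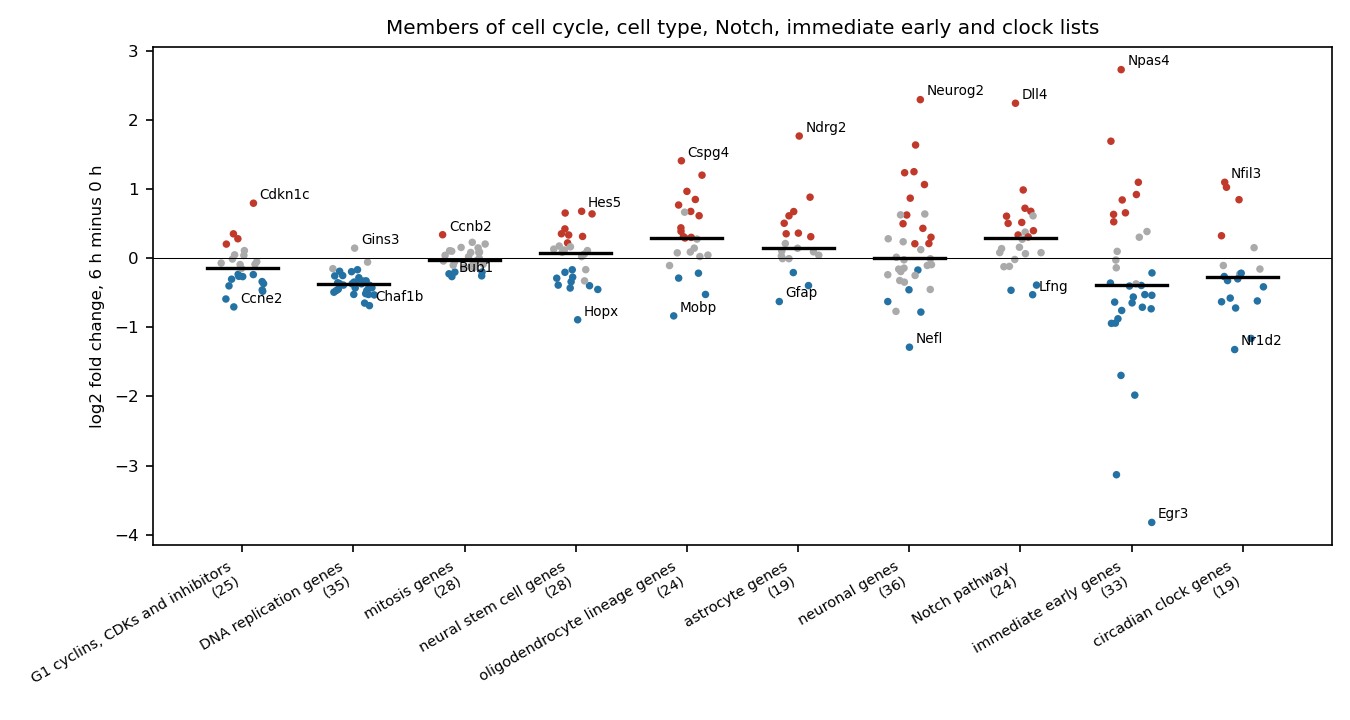
Log2 fold changes (y axis, 6 h minus 0 h) of the tested members of 10 lists, red where higher, blue where lower and grey otherwise, with a bar at the median of each list. Replication genes lie almost wholly under 0, mitosis genes scatter around 0, and the immediate early genes reach the farthest down, to Egr3 at -3.82.

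Of 25 tested genes of the IL-6 family and JAK/STAT signalling, 7 were lower and 5 higher. Beside Il6ra, the cytokine gene Clcf1 fell from 23.9, 23.8 and 7.86 CPM to 10.6, 10.8 and 4.04 CPM (-1.10), the oncostatin M receptor gene Osmr from 3.91, 8.12 and 1.70 CPM to 2.09, 2.09 and 0.756 CPM (-1.38) and the feedback inhibitor Socs2 from 1.95, 6.501 and 6.32 CPM to 1.14, 2.46 and 1.90 CPM (-1.38). Stat3, which IL-6 receptors activate, was lower by -0.42, and the shared receptor chain gene Il6st did not pass (-0.15, adjusted p = 0.069). Stat2, an interferon signal transducer, rose from 21.9, 18.0 and 19.7 CPM to 44.7, 34.4 and 36.6 CPM (0.95). Among 21 tested genes of the BMP pathway 7 (33.3%) were lower and 2 (9.52%) higher (3 to 7 and 1 to 2 with libraries left out). The HLH inhibitor Id2 fell from 35.3, 65.1 and 52.99 CPM to 23.2, 43.7 and 32.7 CPM (-0.63), whereas Id1 was at 11.7, 13.7 and 8.54 CPM and 10.6, 14.8 and 9.16 CPM (0.03, adjusted p = 0.812). In the WNT pathway 9 of 32 were lower and 7 higher (5 to 10 and 6 to 9), with the receptor gene Fzd9 rising from 11.4, 4.69 and 23.1 CPM to 27.0, 13.5 and 39.7 CPM (1.16) and the receptor gene Lgr6 falling from 0.733, 0.892 and 0.516 CPM to 0.434, 0.264 and 0.215 CPM (-1.25). Of 11 Hedgehog genes 2 were higher, among them the coreceptor gene Boc (0.68), and 2 lower. Each share was 18.2%, near the 17.4% and 17.5% of all tested genes.

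Of 19 clock genes 11 (57.9%) were lower and 4 (21.1%) higher (median -0.27), and the groups were separate for 13, beside 25.0% of all tested genes. Per2, a negative arm gene of the clock, fell from 79.6, 63.3 and 71.9 CPM to 28.3, 31.4 and 35.5 CPM (-1.16). Nr1d2, which encodes the repressor REV-ERB beta, fell from 76.9, 61.2 and 68.2 CPM to 27.2, 26.7 and 28.1 CPM (-1.32). In the positive arm, Arntl rose from 25.1, 38.8 and 26.9 CPM to 49.4, 61.7 and 49.95 CPM (0.84) and Npas2 by 1.02, whereas Clock, the partner of ARNTL, fell from a mean of 108 CPM to 93.0 CPM (-0.22, adjusted p = 0.0186). Per1 (-0.23, adjusted p = 0.0753) and Nr1d1 (-0.16, adjusted p = 0.0867) did not pass the test. The time of day at which the cells were collected is not given in the sources used here, so clock time and hours of differentiation cannot be told apart.

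Of 19 tested genes of the m6A pathway 8 (42.1%) were lower and 0 higher (median -0.13), with 3 to 11 lower when libraries were left out. Mettl3, the catalytic subunit of the writer complex, was at 36.0, 32.1 and 37.0 CPM and 37.4, 33.4 and 40.2 CPM (0.08, adjusted p = 0.266). Among its partners Virma, Zc3h13, Rbm15b and Cbll1 did not pass, while Mettl14, Wtap and Rbm15 were lower. Mettl14 fell from 43.6, 42.0 and 42.3 CPM to 36.5, 36.4 and 37.5 CPM (-0.21, lost in 3 of 12 fits with fewer libraries) and Wtap from 81.8, 78.7 and 82.0 CPM to 73.2, 62.1 and 72.1 CPM (-0.23, lost in 2). The reader gene Igf2bp2 fell from 13.1, 13.7 and 62.7 CPM to 7.78, 8.92 and 42.3 CPM (-0.64), with replicate 3 highest at both times. Of 40 splicing regulators 18 (45.0%) were lower and 7 (17.5%) higher (median -0.12), a count of lower genes that ranged from 6 to 22 when libraries were left out. Srsf1, a founding SR protein gene, fell from 510, 400 and 549 CPM to 424, 306 and 423 CPM (-0.34) and Mbnl1 from 89.0, 72.9 and 87.2 CPM to 69.0, 52.3 and 63.7 CPM (-0.43). All 4 Clk genes, which encode kinases of SR proteins, were higher, among them Clk3 from 34.3, 35.2 and 38.9 CPM to 46.7, 43.4 and 44.8 CPM (0.32) and Clk1 (0.14, adjusted p = 0.0476). Clk1 kept its call in 3 and Clk4 in 6 of 12 fits with fewer libraries (highest adjusted p, 0.272 and 0.322).

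Adhesion and guidance genes moved in both directions. Of 53 tested matrix, laminin and integrin genes 12 were higher and 17 lower (9 to 16 and 9 to 18 with libraries left out). Tnc, the niche glycoprotein tenascin C, fell from 3280, 2277 and 1913 CPM to 2190, 1309 and 1301 CPM (-0.64). The integrin gene Itga7 fell from 87.5, 77.1 and 91.4 CPM to 44.2, 44.8 and 53.2 CPM (-0.85) while Itga6, another laminin receptor chain, rose from 233, 287 and 277 CPM to 318, 402 and 353 CPM (0.43). Both had separate groups. Of 44 axon guidance genes 12 (27.3%) were higher and 11 (25.0%) lower (7 to 13 and 6 to 13), not far from the shares of protein-coding genes. The ligand gene Slit2 rose from 2.14, 5.55 and 0.630 CPM to 4.19, 11.7 and 1.61 CPM (1.09) and its receptor gene Robo2 fell from 45.0, 59.7 and 33.5 CPM to 25.8, 44.5 and 17.9 CPM (-0.70). Of 17 tested YAP and TEAD genes 9 (52.9%) were lower and 2 (11.8%) higher (4 to 9 and 2 to 3). The target gene Ccn1 fell from 11.3, 11.0 and 16.7 CPM to 5.85, 7.49 and 11.2 CPM (-0.66), whereas Crim1 rose from 78.1, 84.5 and 67.2 CPM to 163, 141 and 120 CPM (0.88).

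Stress and metabolic lists were divided. Of 20 p53 targets 9 were lower and 2 higher, with Mdm2, the ligase that degrades p53, falling from 179, 172 and 173 CPM to 141, 135 and 144 CPM (-0.32). Glycolysis and hypoxia genes had 11 higher (40.7%) and 5 lower (18.5%) of 27 (7 to 14 and 4 to 8 with libraries left out). Of those, Pfkfb3, which makes the activator of phosphofructokinase, fell from 45.0, 40.8 and 55.5 CPM to 27.6, 25.1 and 42.2 CPM (-0.59) and Vegfa rose from 32.3, 25.7 and 31.0 CPM to 45.3, 32.2 and 36.3 CPM (0.35). Among 29 tested ATF4 targets and tRNA synthetases 8 (27.6%) were higher and 6 (20.7%) lower, the latter near the share of protein-coding genes. These counts were 4 to 11 and 1 to 6 when libraries were left out, and 2 were lower with library totals. The cystine transporter gene Slc7a11 fell from 19.8, 8.41 and 30.2 CPM to 8.32, 6.35 and 14.2 CPM (-0.93), and Chac1, which degrades glutathione, rose from 0.857, 0.554 and 0.644 CPM to 1.71, 1.06 and 1.65 CPM (1.10). Heat shock chaperones had 6 higher (33.3%) and 5 lower (27.8%) of 18. The chaperones of the endoplasmic reticulum Hspa5 and Hsp90b1 were among the higher ones (Hspa5 from 536, 632 and 586 CPM to 795, 749 and 815 CPM, 0.43).

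The largest changes among protein-coding genes with a mean of at least 1 CPM lay mostly outside these lists. Pdgfrb, the receptor of PDGF-B, rose from 0.0691, 0.0406 and 0.387 CPM to 0.760, 0.627 and 4.97 CPM (3.68 ± 0.23, adjusted p = 2.31e-07), and replicate 3 was highest at both times. Of the other tested pericyte and fibroblast markers, Col1a1 and Col3a1 did not pass, and Acta2, Tagln and Rgs5 were lower. Acta2 fell from 89.5, 94.3 and 47.8 CPM to 40.0, 44.7 and 25.2 CPM (-1.06), Tagln by 0.88 and Rgs5 by 0.77 on the log2 scale (lost without the 0 h library of replicate 3 at an adjusted p of 0.0544). Among the other large rises, Synpo2l, a sarcomere protein gene, went from 1.396, 2.08 and 1.53 CPM to 9.30, 15.4 and 7.73 CPM (2.66), the muscle gene Dusp27 from 0.442, 0.324 and 0.530 CPM to 3.62, 3.05 and 2.28 CPM (2.77) and the potassium channel gene Kcnq3 from 1.35, 3.68 and 1.39 CPM to 8.08, 18.5 and 8.91 CPM (2.51). Tmem182, Hrc, Cacng6 and Kcnk3 rose by between 2.16 and 2.92. Higher levels were reached by Hdac9, a class IIa histone deacetylase gene, from 3.64, 17.2 and 7.58 CPM to 35.2, 64.5 and 38.7 CPM (2.47), Arhgef3, a RhoA exchange factor gene, from 3.42, 4.53 and 4.45 CPM to 15.2, 21.02 and 18.7 CPM (2.15) and Rtn4rl1, a relative of the Nogo receptor, from 3.93, 4.09 and 1.92 CPM to 22.8, 16.0 and 7.80 CPM (2.19). Stum (3.00) and Wdr66 (2.99) completed the largest rises.

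Among protein-coding genes with a mean of at least 1 CPM, the largest falls were those of Egr2 and Il6ra. Ifi209, an interferon-inducible gene, went from 5.65, 4.84 and 1.53 CPM to 1.13, 0.902 and 0.373 CPM (-2.29), the serotonin receptor gene Htr1b from 1.87, 3.39 and 5.28 CPM to 0.312, 0.759 and 1.18 CPM (-2.27) and the chemokine gene Ccl2 from 5.95, 3.68 and 6.42 CPM to 1.51, 1.07 and 2.28 CPM (-1.74). Each of these had separate groups. Scml4, a Polycomb-related gene, had the most even fall, from 27.6, 26.2 and 27.8 CPM to 8.46, 8.45 and 8.21 CPM (-1.70 ± 0.06, adjusted p = 7.39e-09). Aldh1a3, a retinoic acid synthesis gene, fell from 27.6, 54.6 and 44.7 CPM to 10.2, 17.8 and 16.8 CPM (-1.49), and Trim66, a chromatin regulator gene, from 18.7, 23.1 and 17.2 CPM to 6.61, 8.10 and 6.31 CPM (-1.48). The transcription factor gene Runx1 fell from 6.19, 2.83 and 1.504 CPM to 1.78, 0.748 and 0.728 CPM (-1.62) and Prokr1, a prokineticin receptor gene, from 81.1, 6.73 and 9.97 CPM to 35.6, 1.61 and 2.55 CPM (-1.62), both with overlapping groups since replicate 1 was highest at both times.

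In mean CPM, the largest gains beside Scd2 and Hmgcs1 included Tuba1a, an alpha-tubulin gene of developing neurons, which rose from 1948, 2091 and 2002 CPM to 3113, 2947 and 2904 CPM (0.57). The largest losses were those of Tnc and mt-Nd1.

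Of 14216 protein-coding genes 2914 were higher and 2991 lower. Of 717 antisense genes 93 were higher and 31 lower, of 567 lincRNA genes 71 and 56, and of 66 bidirectional promoter lncRNA genes 12 and 2. Of the small RNA genes, 18 of 125 snoRNA genes were lower and 0 higher, and of 1692 processed pseudogenes 83 were lower and 33 higher. Most of the snoRNA and pseudogene sequences lie within or copy other genes, so their counts are uncertain. Among lncRNAs, Gm15850 rose from 0.636, 0.473 and 0.487 CPM to 2.13, 1.74 and 2.04 CPM (1.89), Mir670hg by 1.78 and Gm3693 by 1.66. 8030451A03Rik fell from 26.1, 15.9 and 9.45 CPM to 8.74, 5.24 and 3.75 CPM (-1.51), while Gm20743 and Gm42808 were lower by -1.80 and -1.31. 8030451A03Rik overlaps Tnc on the opposite strand, and both were lower.

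The library protocol kept strand, but the strand setting of the counting is not given in the sources used here, so a gene and its antisense partner may share reads. Il6ra, Htr1b, Stat3, Ccne2, Hmgcs1, Lss, Acss2, Nab2, Nefl and Tnc overlap a gene on the opposite strand. Pnpla3, Arhgef3, Nop58, Ncl, Elavl3, Clcf1, Scd2, Ctsd and the mitochondrial genes overlap one on their own strand. Ribosomal protein genes, tubulins and Npm1 have near-identical copies, so reads of these may be divided.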

How the data were processed

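RNA of the 9 libraries was extracted with a kit that keeps small RNA, made into stranded mRNA libraries and sequenced in pairs. Per the labels and the methods, the authors aligned the reads with STAR 2.5.3a to GRCm38 and deposited raw counts per gene, without normalisation; they used DESeq2 1.22.1 for their own tests. Groups and replicate numbers were taken from the labels.

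From these counts, genes were kept by edgeR's filter (minimum count 10, minimum total 15), scaled by TMM and fitted with edgeR 4.0.16 (quasi-likelihood test, R 4.3.3) with time and replicate number as terms over all 9 libraries, which left 4 residual degrees of freedom. The pairing is by replicate number in the labels, and same-numbered libraries deviated together (correlations given with the results). P-values were adjusted by Benjamini-Hochberg over the 18858 genes tested, and CPM are TMM-scaled. Values of replicates are given as mean ± SD. Depth was 65871454 to 105592597 counts per library, and genes of a few CPM or less rest on correspondingly few counts. No libraries were duplicates, the smallest chi-square per degree of freedom between libraries being 13.6. Alternatives were DESeq2 1.42.0, no block, other scaling, filters, thresholds and libraries left out, and the code was tested on simulated data.

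The genes, lists and comparison were chosen with earlier results of these data known. Genes are named where they are the 5 markers, the 15 largest rises or falls among called protein-coding genes of at least 1 CPM, the 8 largest in CPM, the 3 largest lncRNA in each direction, or up to 6 called and preset members of a list. Srf, Mcm5, Uhrf1, Nop2 and Atg7 are outside this rule and are shown for their promoter sequence, from RefSeq on GRCm38.p6. Members of a list named without a value are given as its count. A few members of the lists are counted but not reported here by name.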

Additional observations from a re-analysis of the deposited data

How the results depend on the processing

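The number of called genes depended most on the replicate block. Without it 276 genes were higher and 180 lower by edgeR, and 929 and 813 by DESeq2, and 230 of the 282 named genes that were called lost their call in edgeR. An adjusted p under 0.01 gave 2142 higher and 2128 lower genes, and a log2 fold change of at least 1 gave 348 and 256. Other tests, scalings and filters with the block gave 3006 to 3788 higher and 2914 to 3752 lower, and 88.3% to 99.4% of the 6581 calls remained. With libraries or replicate numbers left out, the counts ranged from 1907 to 3996 higher and 1749 to 4055 lower. The lowest counts were without replicate 2 (1907 and 1749, with 54.3% of the calls kept), and leaving out replicate 1 (2104) or the 0 h library of replicate 2 (2147) also lowered the second count by over 1.5 times. The cause was not tested.

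Log2 fold changes near 0 turned. With library totals Fgfr1 was at 0.008 and Ptch1 at 0.002, and with GC and length trends removed Ptch1 was at 0.035, Ythdc1 at 0.025, Id1 at -0.032 and Trp53 at -0.024. With libraries left out, the range was -0.039 to 0.091 for Asns, -0.152 to 0.060 for Ccnb1, -0.719 to 0.028 for Dcx, -0.255 to 0.859 for Erbb3, -0.042 to 0.041 for Fgfr1, -0.043 to 0.092 for Foxo3, -0.953 to 0.046 for Gli1, -0.014 to 0.114 for Id1, -0.108 to 0.063 for Ptch1, -0.028 to 0.059 for Sox11, -0.005 to 0.124 for Sox2, -0.178 to 0.011 for Spry2, -0.038 to 0.275 for Trib3, -0.009 to 0.079 for Trp53 and -0.104 to 0.216 for Txnip. None of these genes was called in the paired fit.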
